A study of Mus musculus with 9 samples.

Results

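Mouse embryonic fibroblasts that lacked the copper importer Ctr1 and were kept with a copper chelator were compared with wild-type fibroblasts across all genes. The comparison holds 6 of the 9 RNA sequencing libraries of the study, 3 of each kind, and its libraries were taken by the labelled genotype and treatment. All cells were C57BL/6 fibroblasts immortalized with T/t antigen, and they grew in DMEM with a modified N2 supplement, EGF and FGF-2. The depleted group had the genotype Ctr1 -/- and was kept with BCS, which the sample labels give as 500 uM over 48 hours and the series record in mM. BCS, or bathocuproine disulfonic acid, is a chelator of cuprous copper that does not readily cross the cell membrane. The controls had the genotype wild type, with no treatment among their characteristics. Titles call the null cells FloxedCtr1, the series record calls the cell lines isogenic, and the labels name neither the recombinase nor the number of clones nor the embryonic day. The large T antigen of SV40 is known to bind p53 and Rb, but the labels do not name the virus. The other 3 libraries came from Ctr1-null cells without BCS. They shared the estimate of the spread, and their values are set beside the main ones. No wild-type library with BCS was analysed here, so loss of the importer and chelation changed together and their shares in this comparison cannot be told apart. The labels do not say that the libraries of a group came from separate cultures, so every p-value measures only the spread between these libraries, which may be technical.

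Copper enters mammalian cells mainly through Ctr1, a trimeric channel for cuprous ions encoded by Slc31a1. Inside the cell, chaperones pass it on by protein contact: Atox1 to the pumps Atp7a and Atp7b of the secretory pathway, Ccs to the superoxide dismutase Sod1, and Cox17 with Sco1 and Sco2 to cytochrome c oxidase. Fibroblasts also load copper into secreted lysyl oxidases, which cross-link collagen and elastin. Much of their control is known to act on the proteins, which mRNA levels do not show. No measurement of copper content was analysed here.

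Slc31a1 (ENSMUSG00000066150.12, GRCm38 chromosome 4, 62360727 to 62391769) is given in CPM, which are counts scaled to the total of each library. Replicates 1, 2 and 3 of wild type had 56.1, 54.8 and 54.9 CPM, and those of Ctr1-null with BCS had 3.24, 2.54 and 1.69 CPM. Without BCS the Ctr1-null libraries had 2.54, 3.88 and 1.40 CPM. All 3 wild-type libraries lay far above all 6 null libraries, so the genotype label of every library matched the targeted gene. The null libraries with and without BCS overlapped, so this gene does not check the BCS label. The log2 fold change of Ctr1-null cells with BCS against wild type was -4.47 ± 0.33 (± standard error, SE, here and below). Its adjusted p was 0.00135 in the quasi-likelihood test of edgeR with the Benjamini-Hochberg method, with a 95% interval of -5.21 to -3.72. Counts were summed over the whole gene, so reads from outside the deleted segment are included.

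Library totals ran from 38962036 to 57206337 counts, and 18408 genes had enough counts to be tested. Among the markers of fibroblasts, Vim, Col1a1, Col1a2, Pdgfrb, S100a4, Twist1 and Prrx1 were well detected in all 6 libraries. Thy1, Fap and Lum stayed under 1 CPM in every library, and Dcn reached that level only in wild-type replicate 1 and in Ctr1-null replicate 3 without BCS. The summed level of the 13 fibroblast markers was 9263 to 10646 CPM in wild type and 8563 to 10487 CPM with BCS. Wild-type replicate 1 stood apart from replicates 2 and 3. On the first principal component, which held 46.2% of the variance, it scored -2.04 against 67.1 and 63.3, while the BCS libraries scored -29.4, -19.3 and -46.5. Pdgfra, a receptor of fibroblasts for platelet-derived growth factor, was at 65.3, 6.11 and 6.62 CPM in replicates 1, 2 and 3 of wild type and at 38.6, 42.7 and 46.5 CPM in the BCS libraries. Results below are therefore also given without wild-type replicate 1.

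**Figure D1:**
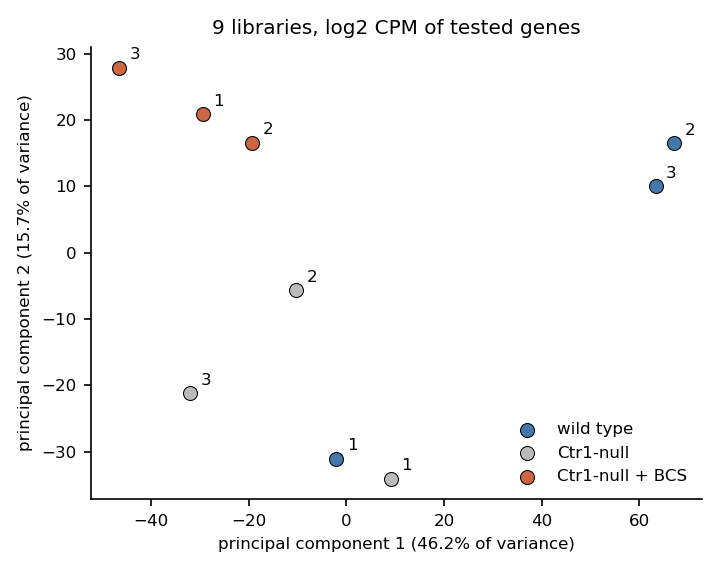
The 9 libraries on the first 2 principal components of log2 CPM over the 18408 tested genes, with the share of variance on each axis, coloured by group and numbered by replicate. Wild-type replicates 2 and 3 lie alone on the right at 67.1 and 63.3, wild-type replicate 1 lies at -2.04 among the Ctr1-null libraries, and the BCS libraries lie at the upper left.

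Of the 18408 genes, 2916 (15.8%) were called at an adjusted p under 0.05 in Ctr1-null cells with BCS against wild type, 1576 higher (8.56%) and 1340 lower (7.28%). At an unadjusted p under 0.05 were 6063 genes. The called genes that rose did so by more than those that fell: the median log2 fold change was 0.91 for the first and -0.48 for the second, and 709 rose but 148 fell by over 2-fold. Changes under 1.5-fold made up 1319 of the calls. The groups of 3 libraries did not overlap in CPM for 2901 of the called genes and for 6826 of all tested genes (37.1%). The median log2 fold change over all tested genes was 0.0065. With library totals in place of TMM scaling, 72.5% of the calls were higher, against 54.0%. In bulk RNA, fewer cells of a kind and less RNA of a gene per cell cannot be told apart, which applies to each value below.

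How many genes were called depended on the tool and on single libraries. DESeq2 called 4081 of 17321 genes (23.6%). Without wild-type replicate 1 the same test called 5840 of 18835 genes (31%), 2964 higher (15.7%) and 2876 lower (15.3%), and 2811 of the 2916 calls remained with the same sign. Without wild-type replicate 2 or 3, or without BCS replicate 1 or 3, 645, 568, 796 and 640 genes were called. The wild-type library nearest to the BCS mean was replicate 1 for 2023 (69.4%) of the called genes and for 52.6% of all tested genes. In all, 497 of the 2916 genes (17.0%) were called in the same direction whichever of the 9 libraries was left out, 289 higher and 208 lower. This set is pointed to below as calls that held in every leave-out. A test against a 2-fold change passed for 3 genes (0.0163%), Slc31a1, Svop and Ccdc13. Svop, a synaptic vesicle protein of the transporter superfamily, stood at 0.998, 1.38 and 1.10 CPM in wild type and 10.7, 7.48 and 9.06 CPM with BCS, a log2 fold change of 2.97 ± 0.24 (edgeR adjusted p = 0.00136). Ccdc13, a coiled-coil protein of the centrosome, had 0.166, 0.108 and 0.167 CPM in wild type and 1.49, 1.57 and 1.67 CPM with BCS (log2 fold change 3.37 ± 0.27, edgeR adjusted p = 0.00136).

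**Figure D2:**
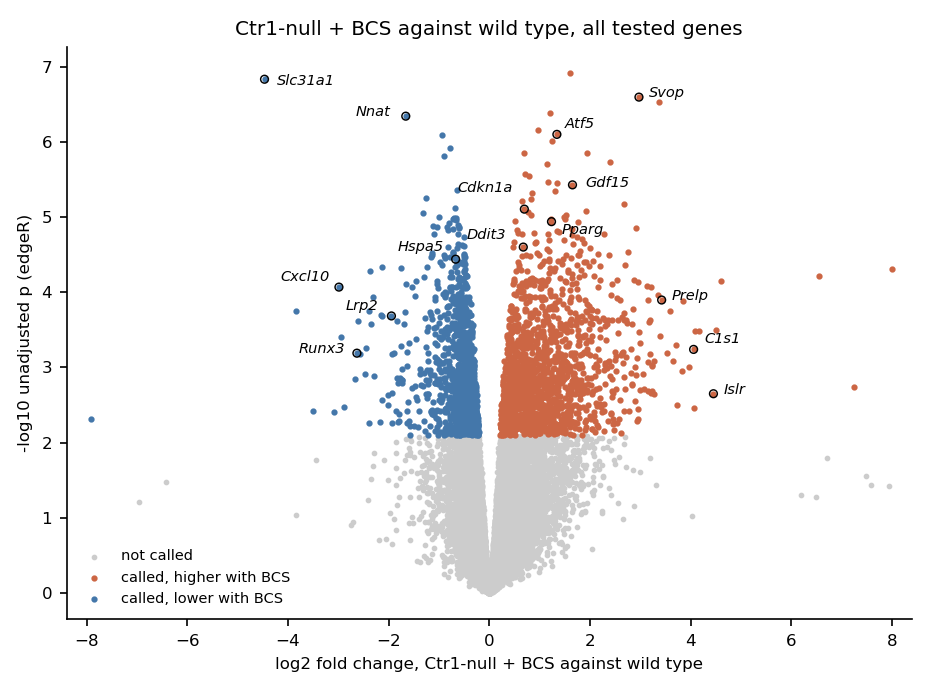
Log2 fold change of Ctr1-null cells with BCS against wild type (x axis) and -log10 of the unadjusted edgeR p (y axis) for all 18408 tested genes, with 1576 called higher in red, 1340 called lower in blue and 15 named genes circled. Called genes on the right reach further from 0 than those on the left, with medians of 0.91 and -0.48, and Slc31a1 stands at -4.47.

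Genes of the integrated stress response rose, in 12 of 32 cases with 0 falls. In this pathway, kinases that sense mitochondrial, amino acid or ER stress phosphorylate the initiation factor eIF2 alpha, general translation slows, and the mRNA of the transcription factor ATF4 is translated. ATF4 then acts with ATF5, CHOP (Ddit3) and C/EBP factors on genes for amino acid transport, amino acid synthesis and secreted stress signals. These shares stand against 8.56% and 7.28% of all genes, and the median log2 fold change of the list was 0.30. Without wild-type replicate 1, 11 rose and 4 fell, against 15.7% and 15.3% of all genes. The 4 were Psat1 and Phgdh of serine synthesis, the amino acid transporter Slc7a5 and the stress protein Nupr1. Calls for 7 members held in every leave-out.

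Some of the members, changed or not, carry near their start the C/EBP-ATF response element (CARE) to which ATF4 binds with a C/EBP partner. The letters TGATGNAA were searched on both strands from 250 bases before to 50 after each start in RefSeq promoter sequences (GRCm38.p6), where 26 of the members and 11972 of all tested genes had an entry. They were found in 10 of the 26 (38.5%), in 5 of the 10 of these that rose, and in 2.99% of the tested genes. The stretches below show 4 of the risen genes that hold them, on the strand of the gene and 5′ to 3′, with the element in capitals. In Vldlr and Pck2 it reads on the opposite strand.
Vldlr, chr19:27216800-27216847, plus strand: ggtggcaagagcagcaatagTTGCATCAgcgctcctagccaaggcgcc
Slc7a11, chr3:50443633-50443680, minus strand: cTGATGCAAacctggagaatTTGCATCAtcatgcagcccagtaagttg
Pycr1, chr11:120643824-120643871, minus strand: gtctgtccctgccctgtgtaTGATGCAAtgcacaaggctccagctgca
Pck2, chr14:55540143-55540190, plus strand: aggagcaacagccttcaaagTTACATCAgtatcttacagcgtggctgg
Slc7a11 holds the element on each strand in this stretch. Across all 358 tested genes with the letters, 50 were called higher (14%) and 24 lower (6.70%), against 8.56% and 7.28% of all genes. These last shares cover all 18408 tested genes, with or without a promoter entry. The share among genes with an entry was not computed. A match of letters describes the sequence and does not show a bound site.

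Among the transcription factors, Atf5 (GRCm38 chromosome 7, 44812256 to 44816658), a regulator of the mitochondrial stress response, was at 37.9, 33.1 and 37 CPM in wild type, 46.3, 33.6 and 37.1 CPM for Ctr1-null and 89.6, 85.6 and 98.7 CPM with BCS. Every BCS library lay above every other library. Against wild type the log2 fold change was 1.34 ± 0.12 (edgeR adjusted p = 0.00164), with 0.11 ± 0.12 for Ctr1-null against wild type and 1.23 ± 0.12 for BCS against Ctr1-null. Ddit3, which encodes the pro-apoptotic factor CHOP, stood at 40.0, 34.7 and 37.3 CPM in wild type and 56.4, 60.4 and 62.0 CPM with BCS (log2 fold change 0.68 ± 0.09, edgeR adjusted p = 0.00549). Trib3, a pseudokinase that restrains ATF4 and AKT, stood at 9.71, 14.1 and 13.7 CPM and 33.9, 28.1 and 41.1 CPM (log2 fold change 1.46 ± 0.24, edgeR adjusted p = 0.00808). In both the BCS libraries were the 3 highest of the 9. Atf4 itself, whose main control is translational, had 222, 277 and 275 CPM in wild type and 338, 357 and 319 CPM with BCS. Its groups did not overlap, yet the change of 0.39 ± 0.12 did not pass the test (edgeR adjusted p = 0.0594).

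Secreted and membrane targets rose too. Gdf15 (GRCm38 chromosome 8, 70629393 to 70632456), a circulating signal of mitochondrial stress, stood at 4.72, 4.92 and 4.55 CPM in wild type and 14.2, 12.9 and 17.5 CPM with BCS (log2 fold change 1.65 ± 0.18, edgeR adjusted p = 0.00327). Vldlr, the receptor for very low density lipoprotein, stood at 16.5, 12.8 and 12.5 CPM in wild type, 26.4, 21.6 and 23.2 CPM for Ctr1-null and 42.9, 29.1 and 45.7 CPM with BCS (log2 fold change 1.49 ± 0.18, edgeR adjusted p = 0.00462). Its Ctr1-null libraries all lay above the wild-type libraries and below the BCS libraries. Slc7a11, the cystine importer that feeds glutathione synthesis, had 7.13, 6.11 and 6.15 CPM in wild type, 23.1, 10.4 and 10.1 CPM for Ctr1-null and 24.8, 15.6 and 25.1 CPM with BCS (log2 fold change 1.75 ± 0.32, edgeR adjusted p = 0.0109), with Ctr1-null replicate 1 among the BCS libraries. Sesn2, a stress-induced inhibitor of mTORC1 that p53 also controls, had 45.2, 47.5 and 45.5 CPM and 59.8, 61.9 and 64.2 CPM (log2 fold change 0.43 ± 0.07, edgeR adjusted p = 0.00846). Within the mitochondrion, Pycr1, which makes proline, and Pck2, a carboxykinase, rose less (log2 fold changes 0.79 ± 0.22 and 0.55 ± 0.16, edgeR adjusted p = 0.0364 and 0.0424). The call of Pck2 was lost without wild-type replicate 1 (edgeR adjusted p = 0.0533).

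Other members did not pass the test. Asns, the asparagine synthetase that is often used as a marker of ATF4 activity, had 65.3, 131 and 130.2 CPM in wild type and 117, 106 and 117 CPM with BCS, so that wild-type replicate 1 lay below and replicates 2 and 3 above the BCS libraries (log2 fold change 0.05 ± 0.26, edgeR adjusted p = 0.911). Psat1 had -0.59 ± 0.19 (edgeR adjusted p = 0.0591, or 0.00517 without wild-type replicate 1). 

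**Figure D3:**
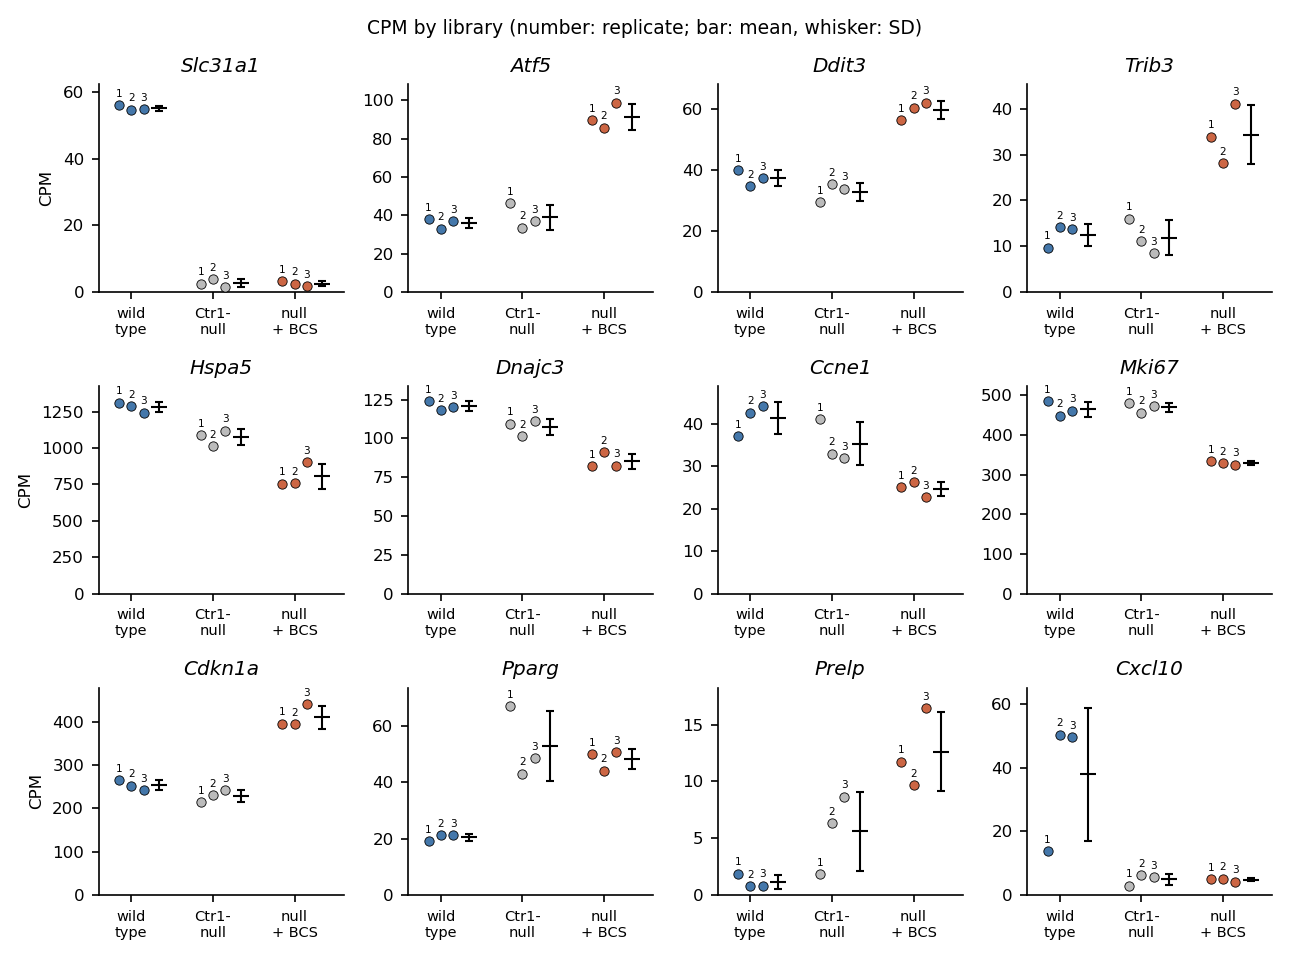
CPM in each of the 9 libraries for 12 genes, with points numbered by replicate and with the mean and SD of each group (n = 3) beside them. Atf5, Ddit3, Trib3 and Cdkn1a have their 3 highest libraries in the BCS group, Hspa5, Dnajc3, Ccne1 and Mki67 have their 3 lowest there, and Pparg is high in both null groups.

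Genes of the endoplasmic reticulum (ER) chaperone system fell, in 14 of 22 cases with 0 rises. These chaperones fold secreted and membrane proteins. They are induced by ATF6 and XBP1 in the unfolded protein response through the ER stress response element (ERSE). Of all genes, 7.28% fell and 8.56% rose. The median log2 fold change of the list was -0.38, and 21 of the 22 values were negative. The count of falls was also 14 without wild-type replicate 1, against 15.3% of all genes, and 6 calls held in every leave-out.

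The ERSE was searched as CCAAT and CCACG with 9 bases between them, on both strands of the same RefSeq windows. It was present in 9 of 19 members with an entry (47.4%), in 8 of the 12 of these that fell, and in 20 of the 11972 tested genes (0.167%). Of the other 11 tested genes with the element, 0 fell and 2 rose. The stretches of 4 fallen chaperone genes are shown with the element in capitals, on the strand of the gene. In Hsp90b1 and Calr it reads on the opposite strand.
Hspa5, chr2:34772005-34772063, plus strand: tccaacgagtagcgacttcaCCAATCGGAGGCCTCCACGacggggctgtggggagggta
Dnajc3, chr14:118937807-118937865, plus strand: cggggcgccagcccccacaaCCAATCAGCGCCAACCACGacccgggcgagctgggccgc
Hsp90b1, chr10:86705513-86705571, minus strand: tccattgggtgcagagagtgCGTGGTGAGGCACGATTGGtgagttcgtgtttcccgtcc
Calr, chr8:84847055-84847113, minus strand: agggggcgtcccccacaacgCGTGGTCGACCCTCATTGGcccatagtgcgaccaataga
The elements shown lie between 65 and 162 bases before the RefSeq start, and Hsp90b1 holds another one 212 bases before it.

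Hspa5 (GRCm38 chromosome 2, 34771970 to 34777547), which encodes the master ER chaperone BiP, stood at 1312, 1289.8 and 1243 CPM in wild type, 1089.6, 1013 and 1119 CPM for Ctr1-null and 756, 757 and 905 CPM with BCS. The 3 groups did not overlap, with the Ctr1-null libraries between the other two. Against wild type the log2 fold change was -0.67 ± 0.09 (edgeR adjusted p = 0.00566), with -0.26 ± 0.09 for Ctr1-null against wild type and -0.41 ± 0.09 for BCS against Ctr1-null. Hsp90b1, the ER paralogue of HSP90, stood at 1738, 1831 and 1808 CPM in wild type and 1081, 1078 and 1299.9 CPM with BCS (log2 fold change -0.64 ± 0.09, edgeR adjusted p = 0.00608). Calr, the calcium-binding lectin chaperone calreticulin, had 1638, 1680.1 and 1743 CPM and 1024, 1123 and 1229 CPM (log2 fold change -0.58 ± 0.09, edgeR adjusted p = 0.00755). Dnajc3, a co-chaperone of BiP, had 124, 118 and 120.2 CPM and 81.9, 91.0 and 82.3 CPM (log2 fold change -0.50 ± 0.07, edgeR adjusted p = 0.00567). In each of the 3 every BCS library was below every wild-type library. Hyou1, a nucleotide exchange factor of BiP, and Sdf2l1, a partner of ER co-chaperones, fell as well (log2 fold changes -0.47 ± 0.07 and -0.76 ± 0.11, edgeR adjusted p = 0.00594 and 0.00608). The list mean of wild-type replicate 1 was no nearer to the BCS libraries than those of replicates 2 and 3, at 0.05, -0.04 and -0.01 log2 CPM about the wild-type mean in replicates 1, 2 and 3 against -0.45, -0.39 and -0.28 with BCS.

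Genes of S phase fell, in 19 of 35 cases with 0 rises. E2F factors, which the Rb proteins restrain, switch on the genes for licensing origins, making nucleotides and copying DNA. The median log2 fold change of the list was -0.42, and the counts stand against 7.28% and 8.56% of all genes. Without wild-type replicate 1, 22 fell, against 15.3% of all genes. The calls of 2 of the 19, Ccne1 and Mcm7, held in every leave-out. Ccne1, cyclin E1, stood at 37.1, 42.5 and 44.2 CPM in wild type, 41.1, 32.9 and 31.9 CPM for Ctr1-null and 25, 26.1 and 22.7 CPM with BCS (log2 fold change -0.74 ± 0.12, edgeR adjusted p = 0.00663). Mcm7, a subunit of the replicative helicase, had 257, 276 and 285 CPM and 196, 201 and 179 CPM (log2 fold change -0.51 ± 0.08, edgeR adjusted p = 0.00666). Lig1, the ligase that joins Okazaki fragments, fell by 0.41 ± 0.08 log2 units (edgeR adjusted p = 0.0116). The BCS libraries of these genes were the 3 lowest of the 9, and BCS replicate 3 was the lowest in each.

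E2F sites were searched as TTTCCCGC or TTTGGCGC on both strands of the same windows. They lay in 10 of 28 S phase genes with an entry (35.7%), in 6 of the 16 of these that fell (37.5%), and in 3.19% of tested genes. Stretches of 4 fallen genes are shown on the strand of the gene, with a site in capitals. They are the helicase subunits Mcm7 and Mcm6, the primase-bound polymerase Pola1 and the helicase loader Cdc6. In Mcm7, Pola1 and Cdc6 the site reads on the opposite strand.
Mcm7, chr5:138172021-138172068, minus strand: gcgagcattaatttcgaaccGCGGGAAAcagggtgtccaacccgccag
Mcm6, chr1:128359725-128359772, minus strand: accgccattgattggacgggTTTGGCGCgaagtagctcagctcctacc
Pola1, chrX:93632266-93632313, minus strand: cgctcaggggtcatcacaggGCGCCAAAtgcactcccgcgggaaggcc
Cdc6, chr11:98907993-98908040, plus strand: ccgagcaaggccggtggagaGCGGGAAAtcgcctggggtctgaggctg
All 382 tested genes with either site included 62 called lower (16.2%) and 18 higher (4.71%), against 7.28% and 8.56% of all genes. The shares of all genes include those without a RefSeq entry. Outside the S phase list, 56 of 372 were called lower.

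Mitotic genes fell as well, in 13 of 30 cases with 0 rises (median -0.33), against 7.28% and 8.56% of all genes. The fit without wild-type replicate 1 had 23 that fell, against 15.3%. Mki67 (GRCm38 chromosome 7, 135689784 to 135716361), the proliferation antigen Ki-67, stood at 486, 449 and 461 CPM in wild type, 479, 456 and 472 CPM for Ctr1-null and 334, 329 and 325 CPM with BCS (log2 fold change -0.50 ± 0.07, edgeR adjusted p = 0.00560). Its wild-type and Ctr1-null libraries overlapped, and the BCS libraries lay below all of them. The mitotic kinase Plk1 had 82.1, 85.3 and 90.5 CPM in wild type and 62.4, 60.6 and 58.1 CPM with BCS (log2 fold change -0.51 ± 0.07, edgeR adjusted p = 0.00560). Anln, the cytokinesis protein anillin, fell by 0.49 ± 0.10 log2 units (edgeR adjusted p = 0.0142). Mki67 and Plk1 were the 2 members whose calls held in every leave-out.

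Of 15 genes of cyclin D, its kinases and their inhibitors, 1 rose and 3 fell, against 8.56% and 7.28% of all genes. Cdkn1a (GRCm38 chromosome 17, 29090976 to 29100727), the p53-induced inhibitor p21, stood at 265, 252 and 242 CPM in wild type, 214, 231 and 242 CPM for Ctr1-null and 396, 395 and 441 CPM with BCS. The BCS libraries were the 3 highest and the Ctr1-null libraries lay at or below the lowest wild-type library. Its log2 fold change was 0.70 ± 0.08 (edgeR adjusted p = 0.00462). Mdm2, the ligase that degrades p53, stood at 283, 237 and 225 CPM in wild type and 376, 413 and 371 CPM with BCS (log2 fold change 0.64 ± 0.10, edgeR adjusted p = 0.00763). Ccnd1, cyclin D1, had 274, 332 and 335 CPM and 225, 188 and 179.8 CPM (log2 fold change -0.67 ± 0.11, edgeR adjusted p = 0.00808). Its partner kinase Cdk6 and cyclin D2, Ccnd2, fell too (log2 fold changes -0.64 ± 0.13 and -0.41 ± 0.12, edgeR adjusted p = 0.0150 and 0.0475). Of 30 p53 targets, 4 rose (Cdkn1a, Mdm2, Sesn2 and Phlda3) and 1 fell (Ccnd1), with a median of 0.12. That share is close to the 15.8% of all genes, and the counts became 6 and 4 without wild-type replicate 1, against 31%. The mRNA of p53 itself, Trp53, was at -0.28 ± 0.09 (edgeR adjusted p = 0.0707).

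Replication-dependent histone genes had the lowest median of the 37 lists, at -0.82, with 7 of 24 tested members lower and 0 higher, or 11 lower without wild-type replicate 1, against 7.28% and 15.3% of all genes. Calls of 2 members held in every leave-out. Their mRNAs are made in S phase and mostly lack a poly(A) tail, many copies are nearly identical in sequence, and the split of reads between copies is uncertain. Hist1h2bc, an H2B gene, stood at 22.3, 36.8 and 38.2 CPM in wild type, 17.6, 17.1 and 17.1 CPM for Ctr1-null and 14.7, 13.2 and 13.6 CPM with BCS (log2 fold change -1.23 ± 0.18, edgeR adjusted p = 0.00592). Wild-type replicate 1 lay between the other wild-type libraries and the null libraries, and so did the mean of the list, at -0.43, 0.25 and 0.19 log2 CPM about the wild-type mean in wild-type replicates 1, 2 and 3 and -0.70, -0.71 and -0.87 in the BCS libraries. Hist1h4i, an H4 gene, fell by 1.13 ± 0.20 log2 units (edgeR adjusted p = 0.00940).

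Genes of nucleolar ribosome biogenesis, which process ribosomal RNA, had negative values in 30 of 30 members, with a median of -0.48. The test passed for 6 of them, and for 17 without wild-type replicate 1, against 7.28% and 15.3% of all genes that fell. No call of the list held in every leave-out. Fbl, the methyltransferase fibrillarin, stood at 98.5, 103 and 115 CPM in wild type and 73.5, 81.2 and 68.8 CPM with BCS (log2 fold change -0.50 ± 0.12, edgeR adjusted p = 0.0218). Dkc1, the pseudouridine synthase dyskerin, had 56.8, 101 and 101 CPM, 78.4, 50 and 45.2 CPM for Ctr1-null and 44.3, 53.1 and 31.6 CPM with BCS (log2 fold change -1.01 ± 0.28, edgeR adjusted p = 0.0401). Wild-type replicate 1 lay well below replicates 2 and 3 and below Ctr1-null replicate 1 for this gene. Gnl3, the nucleolar GTPase nucleostemin, fell by 0.72 ± 0.18 log2 units (edgeR adjusted p = 0.0287). Cytosolic heat shock genes showed 4 of 23 lower and 0 higher (median -0.34), or 12 lower without wild-type replicate 1. The shares of all genes that fell in these fits were 7.28% and 15.3%. Hspa1b, an inducible HSP70 with a near-identical neighbour gene, stood at 145, 134 and 149 CPM in wild type, 102, 99.1 and 105 CPM for Ctr1-null and 97.3, 106 and 92.6 CPM with BCS (log2 fold change -0.53 ± 0.08, edgeR adjusted p = 0.00573), with the 2 null groups overlapping below wild type. Dnaja1 and Hsph1, a co-chaperone and an exchange factor of HSP70, fell too (log2 fold changes -0.44 ± 0.10 and -0.53 ± 0.13).

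**Figure D4:**
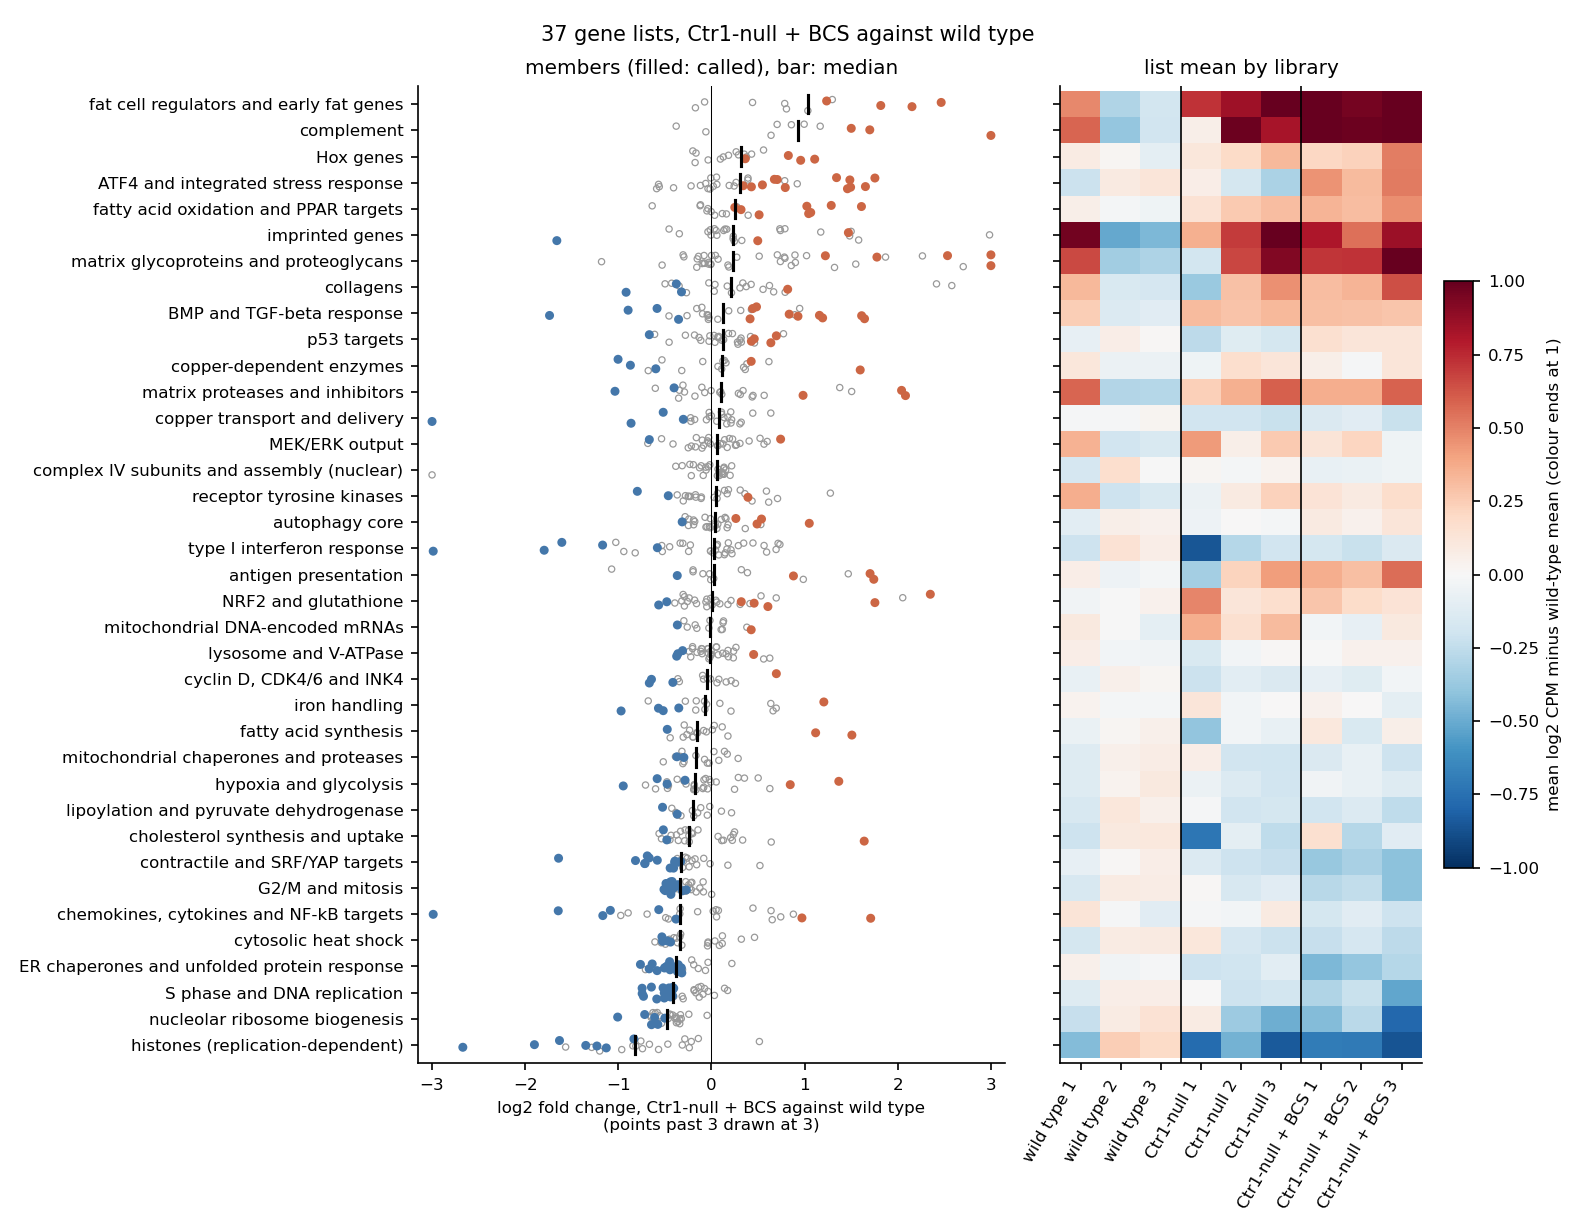
Left, log2 fold changes of Ctr1-null cells with BCS against wild type for the tested members of 37 gene lists, with called members filled, medians as bars and values past 3 drawn at 3. Right, the mean log2 CPM of each list in each library minus the wild-type mean. ER, S phase, nucleolar and histone lists lie lowest and fat cell and complement lists highest, and wild-type replicate 1 differs from replicates 2 and 3 most in imprinted and matrix genes.

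Genes of copper transport and delivery were called at about the share of all genes. Of 24 tested members, 4 fell, Slc31a1 included, and 0 rose (median 0.08). Among all genes, 15.8% were called and 7.28% fell. Atp7a, the pump that exports copper and loads secreted enzymes, stood at 16.9, 16.7 and 16.4 CPM in wild type, 14.3, 13.9 and 13.0 CPM for Ctr1-null and 13.2, 13.4 and 13.9 CPM with BCS (log2 fold change -0.30 ± 0.08, edgeR adjusted p = 0.0368). Sco2, which inserts copper into cytochrome c oxidase, had 10.1, 7.95 and 8.85 CPM and 4.50, 5.68 and 4.64 CPM (log2 fold change -0.86 ± 0.18, edgeR adjusted p = 0.0163). Slc11a2, the divalent metal transporter DMT1, had 44.6, 51.3 and 52.7 CPM and 33.8, 37.9 and 32.1 CPM (log2 fold change -0.52 ± 0.09, edgeR adjusted p = 0.0103). In all 3 the BCS libraries lay below the wild-type libraries, and for Atp7a the Ctr1-null libraries did so too. These 4 genes also fell without wild-type replicate 1, and 2 members rose, where 31% of all genes were called. The chaperones did not pass the test, with 95% intervals of the log2 fold change of -0.01 to 0.33 for Atox1, -0.15 to 0.37 for Ccs and 0.04 to 0.37 for Cox17. The metallothioneins Mt1 and Mt2, which bind surplus metal, had intervals of -0.35 to 0.30 and -0.78 to 0.34 (edgeR adjusted p = 0.933 and 0.569).

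Among 18 tested genes of copper-dependent enzymes and other copper-binding proteins, 3 fell and 2 rose (median 0.12). Without wild-type replicate 1, 4 fell and 4 rose, and the shares of all genes called in these fits were 15.8% and 31%. Of the calls in the main fit, 0 held in every leave-out. Loxl2 and Loxl4 are lysyl oxidases of the matrix. Loxl2 stood at 181, 323 and 345 CPM in wild type, 85.5, 174 and 108 CPM for Ctr1-null and 151, 126 and 147 CPM with BCS (log2 fold change -1.0 ± 0.28, edgeR adjusted p = 0.0410), with wild-type replicate 1 nearest to the BCS libraries. Loxl4 fell by 0.60 ± 0.16 log2 units (edgeR adjusted p = 0.0377), whereas Lox, another lysyl oxidase, was at 0.62 ± 0.22 (edgeR adjusted p = 0.0883). Sod3, the secreted superoxide dismutase, stood at 22.1, 13.5 and 13.8 CPM and 9.23, 8.44 and 9.36 CPM (log2 fold change -0.87 ± 0.19, edgeR adjusted p = 0.0181), while the cytosolic Sod1 was at -0.32 ± 0.19 (edgeR adjusted p = 0.267). The copper-binding kinases Map2k1 (MEK1), Ulk1 and Ulk2 had 0.12 ± 0.08, 0.16 ± 0.10 and 0.36 ± 0.14, none past the test. F5, coagulation factor V, rose by 1.60 ± 0.48 log2 units (edgeR adjusted p = 0.0489) from 1.89, 0.487 and 0.465 CPM to 2.55, 2.84 and 3.29 CPM, and by 2.59 without wild-type replicate 1.

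Cytochrome c oxidase, the copper enzyme of the respiratory chain, had a list of 27 tested nuclear-encoded subunits and assembly factors. In this list 0 genes were called (median 0.06), with 3 lower without wild-type replicate 1. The assembly factor Sco2, which fell, was counted among the copper transport and delivery genes and not in this list. Cox7b, a small subunit, had 43.7, 62.6 and 66.7 CPM in wild type and 44.0, 43.4 and 45.3 CPM with BCS, with wild-type replicate 1 among the BCS libraries (log2 fold change -0.38 ± 0.14, edgeR adjusted p = 0.0855). Without wild-type replicate 1, 2 of the 13 mRNAs from mitochondrial DNA rose and 1 fell, where 31% of all genes were called. In the main fit 1 rose and 1 fell, against 15.8% of all genes called. The first, mt-Co2, which carries a copper site of the oxidase, stood at 2575, 2720.0 and 2249 CPM in wild type, 3427, 3103 and 3571 CPM for Ctr1-null and 3269, 3074 and 3795 CPM with BCS (log2 fold change 0.43 ± 0.11, edgeR adjusted p = 0.0346). Both null groups of mt-Co2 lay above wild type and overlapped each other. mt-Nd2, of complex I, stood at 1806, 1707 and 1612 CPM and 1309.8, 1293 and 1373 CPM (log2 fold change -0.37 ± 0.10, edgeR adjusted p = 0.0354). In the list of mitochondrial chaperones and proteases, 2 of 17 members fell, the DNA polymerase Polg and the protease Htra2 (log2 fold changes -0.30 ± 0.09 and -0.37 ± 0.11, edgeR adjusted p = 0.0434 and 0.0482). Among 14 genes of protein lipoylation and the pyruvate dehydrogenase family, Dbt and Gcsh, whose products carry or form part of lipoylated enzymes, fell (log2 fold changes -0.37 ± 0.08 and -0.53 ± 0.15, edgeR adjusted p = 0.0187 and 0.0424). Without wild-type replicate 1, 6 and 6 genes of these lists fell. Of all genes, 15.3% fell in that fit and 7.28% in the main fit.

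Iron handling genes gave 4 falls and 1 rise among 17, where 15.8% of all genes were called, or 6 and 3 without wild-type replicate 1, where 31% were. Copper and iron are linked through copper ferroxidases, and the transferrin receptor mRNA is stabilised when iron-regulatory proteins bind it. Tfrc, that receptor, stood at 367, 505 and 478 CPM in wild type, 356, 229.9 and 213 CPM for Ctr1-null and 240.3, 294 and 155 CPM with BCS (log2 fold change -0.97 ± 0.26, edgeR adjusted p = 0.0330). The null groups overlapped, and only Ctr1-null replicate 1 came near the lowest wild-type library. The mitochondrial iron importer Slc25a37 had 129, 109 and 109.8 CPM and 81.1, 89.3 and 64.5 CPM (log2 fold change -0.57 ± 0.12, edgeR adjusted p = 0.0159). Hfe, a binding partner of the receptor, stood at 5.66, 4.30 and 3.51 CPM and 10.6, 8.56 and 11.9 CPM (log2 fold change 1.21 ± 0.22, edgeR adjusted p = 0.0101). For Hfe every Ctr1-null library also lay above wild type, and its call held in every leave-out.

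Some genes of fatty acid use and of early fat cell formation rose. Of 19 genes of fatty acid oxidation and PPAR control, 8 rose and 0 fell (median 0.25), and of 11 regulators and early genes of fat cells, 4 rose and 0 fell (median 1.03), against 8.56% and 7.28% of all genes. In all leave-outs, 3 and 3 of these rises held, and 8 and 7 genes rose without wild-type replicate 1, against 15.7% of all genes. Pparg (GRCm38 chromosome 6, 115360951 to 115490399), the nuclear receptor that drives fat cell formation, stood at 19.1, 21.2 and 21.1 CPM in wild type, 67.0, 43.0 and 48.5 CPM for Ctr1-null and 49.9, 44.1 and 50.6 CPM with BCS. Both null groups lay above wild type and overlapped each other. The log2 fold change with BCS was 1.24 ± 0.15 (edgeR adjusted p = 0.00462), and -0.13 ± 0.15 for BCS against Ctr1-null. Fabp4, a fatty acid carrier under Pparg, stood at 3.29, 1.84 and 1.69 CPM in wild type and 8.52, 8.27 and 13.6 CPM with BCS (log2 fold change 2.15 ± 0.29, edgeR adjusted p = 0.00560). Plin4, a lipid droplet coat protein, stood at 98.5, 59.6 and 58.8 CPM, 113, 186 and 199 CPM for Ctr1-null and 244, 212 and 308 CPM with BCS (log2 fold change 1.82 ± 0.26, edgeR adjusted p = 0.00602), with wild-type replicate 1 above the other wild-type libraries. The fourth, Cebpa, the partner factor of Pparg, had 4.93, 0.595 and 0.744 CPM and 10.4, 12.3 and 12.3 CPM (log2 fold change 2.47 ± 0.68, edgeR adjusted p = 0.0383, or 4.09 without wild-type replicate 1).

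Most markers of mature fat cells were too low to test. The summed level of 7 markers was 1.90 to 3.60 CPM in wild type and 8.63 to 14.1 CPM with BCS, nearly all of it Fabp4. Lep had 0 counts in all 9 libraries, and Adipoq, Plin1, Cidec, Cfd and Retn stayed under 1 CPM, so that Fabp4 was the 1 marker tested. In oxidation, Acadvl, the very long chain acyl-CoA dehydrogenase, stood at 63.7, 64.8 and 62.2 CPM in wild type, 68.9, 72.6 and 72.2 CPM for Ctr1-null and 91.3, 87.2 and 93.3 CPM with BCS (log2 fold change 0.51 ± 0.06, edgeR adjusted p = 0.00462). Each group lay above the one before without overlap. Pdk4, a kinase that inhibits pyruvate dehydrogenase, had 15.6, 13.7 and 12.5 CPM and 26.6, 23.5 and 34.9 CPM (log2 fold change 1.02 ± 0.16, edgeR adjusted p = 0.00663). Ehhadh, of peroxisomal oxidation, stood at 0.707, 0.811 and 0.892 CPM and 1.67, 1.59 and 1.79 CPM (log2 fold change 1.07 ± 0.20, edgeR adjusted p = 0.0111). Of 18 genes of fatty acid synthesis, 2 rose and 1 fell, or 2 and 3 without wild-type replicate 1. The shares of all genes called in these fits were 15.8% and 31%. Acss2, which makes acetyl-CoA from acetate, stood at 20.2, 18.5 and 19.5 CPM and 64.2, 41.8 and 59.4 CPM (log2 fold change 1.51 ± 0.27, edgeR adjusted p = 0.0105), and Elovl6, a fatty acid elongase, fell by 0.47 ± 0.14 log2 units (edgeR adjusted p = 0.0479).

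Cholesterol genes showed 1 rise and 2 falls among 27, or 2 and 6 without wild-type replicate 1, where 15.8% and 31% of all genes were called. Abca1, the pump that exports cholesterol, stood at 11.4, 8.05 and 8.61 CPM in wild type, 10.1, 19.7 and 14.9 CPM for Ctr1-null and 29.1, 24.1 and 34.3 CPM with BCS (log2 fold change 1.64 ± 0.24, edgeR adjusted p = 0.00638), with all BCS libraries above all others. Srebf2, the factor that switches on synthesis, and Ebp, a sterol isomerase, fell (log2 fold changes -0.48 ± 0.12 and -0.52 ± 0.14, edgeR adjusted p = 0.0308 and 0.0384). Of 32 genes of glycolysis and the hypoxia response, 4 fell and 2 rose, near the share of all genes. Without wild-type replicate 1, 12 fell, against 15.3% of all genes. Slc2a1, the glucose transporter GLUT1, had 107, 101 and 109 CPM and 76.7, 83.5 and 67.6 CPM (log2 fold change -0.48 ± 0.09, edgeR adjusted p = 0.0134), and hexokinase Hk2 fell by 0.95 ± 0.24 log2 units (edgeR adjusted p = 0.0275). Vegfa, the vascular growth factor, stood at 44.2, 29.2 and 32.4 CPM and 60.3, 54.5 and 75.3 CPM (log2 fold change 0.85 ± 0.17, edgeR adjusted p = 0.0139). In the NRF2 and glutathione list, 5 of 31 rose and 2 fell, against 8.56% and 7.28% of all genes. Without wild-type replicate 1, 5 rose and 10 fell, against 15.7% and 15.3%. Gsta4, a glutathione transferase for lipid aldehydes, stood at 2.77, 1.22 and 1.10 CPM in wild type, 10.2, 5.21 and 6.15 CPM for Ctr1-null and 8.81, 5.72 and 11.5 CPM with BCS (log2 fold change 2.35 ± 0.41, edgeR adjusted p = 0.00952), high in both null groups. Gstm1, another transferase, rose by 0.61 ± 0.14 log2 units, and G6pdx and Prdx6, a source of NADPH and a peroxiredoxin, fell (log2 fold changes -0.57 ± 0.14 and -0.48 ± 0.14).

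**Figure D5:**
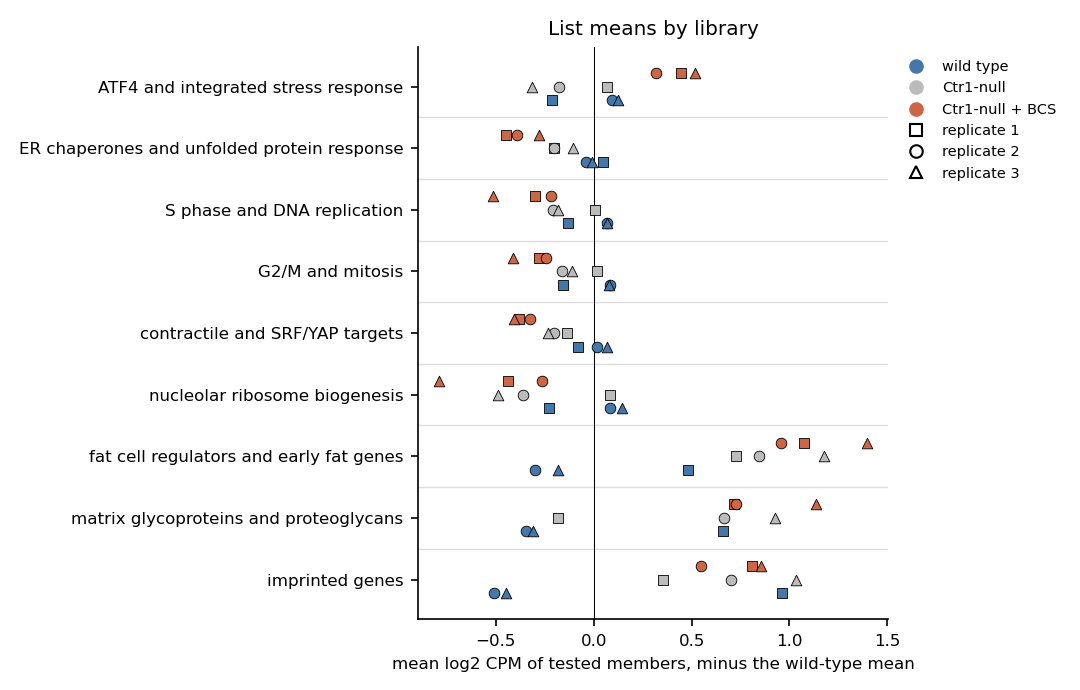
Mean log2 CPM of the tested members of 9 gene lists in each library, minus the wild-type mean, with the group as colour and the replicate as symbol. The integrated stress response list is high only in the 3 BCS libraries, the fat cell list is high in all null libraries, and in the imprinted and matrix lists wild-type replicate 1 lies among the null libraries.

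Cytoskeletal and contractile genes fell, in 13 of 27 cases with 0 rises. Serum response factor and the YAP coactivators switch these genes on when actin filaments assemble and cells pull on their matrix. Of all genes, 7.28% fell and 8.56% rose. The median log2 fold change of the list was -0.33, and 19 members fell without wild-type replicate 1, against 15.3% of all genes. Vcl (GRCm38 chromosome 14, 20929398 to 21033676), the focal adhesion protein vinculin, stood at 1141, 1260.0 and 1279.6 CPM in wild type, 877, 964 and 861 CPM for Ctr1-null and 771, 782 and 691 CPM with BCS (log2 fold change -0.71 ± 0.09, edgeR adjusted p = 0.00463). The 3 groups were ordered without overlap, with BCS lowest. Flna, the actin cross-linker filamin A, had 2898, 3605 and 3765 CPM, 2493, 2355 and 2329 CPM and 2001, 1985 and 1847 CPM in the same order (log2 fold change -0.82 ± 0.11, edgeR adjusted p = 0.00549). Tpm1, a tropomyosin, stood at 1333, 1655 and 1647 CPM in wild type and 930.1, 973 and 918 CPM with BCS (log2 fold change -0.72 ± 0.10, edgeR adjusted p = 0.00560). The calls of these 3 members held in every leave-out.

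In BMP and TGF-beta signalling, BMP ligands act through SMAD1, SMAD5 and SMAD9 to induce the ID proteins, which block differentiation factors, and the inhibitory SMAD6. Of 30 tested genes, 9 rose and 4 fell (median 0.13), against 8.56% and 7.28% of all genes, or 12 and 4 without wild-type replicate 1, against 15.7% and 15.3%. Among ligands and their antagonists, Tgfb3 stood at 84.9, 91.3 and 91.0 CPM in wild type and 47.4, 47.4 and 48.9 CPM with BCS (log2 fold change -0.90 ± 0.18, edgeR adjusted p = 0.0150), and the BMP antagonist noggin, Nog, had 1.31, 2.11 and 2.29 CPM and 0.510, 0.833 and 0.359 CPM (log2 fold change -1.74 ± 0.40, edgeR adjusted p = 0.0216). Among targets, Id3 (GRCm38 chromosome 4, 136143497 to 136145755) stood at 139, 114 and 117 CPM in wild type, 194, 171 and 183 CPM for Ctr1-null and 225, 207 and 228 CPM with BCS (log2 fold change 0.83 ± 0.09, edgeR adjusted p = 0.00408). Wild type was lowest and BCS highest, with no overlap between the 3 groups. Smad9, a BMP effector, stood at 11.5, 7.30 and 7.92 CPM and 28.4, 27.9 and 27.1 CPM (log2 fold change 1.64 ± 0.20, edgeR adjusted p = 0.00463), and Smad6 at 39.6, 29.9 and 30.0 CPM and 69.0, 69.1 and 84.3 CPM (log2 fold change 1.16 ± 0.15, edgeR adjusted p = 0.00463). Pmepa1, a TGF-beta target that dampens the pathway, fell by 0.58 ± 0.14 log2 units (edgeR adjusted p = 0.0227). For 6 of the 9 risen genes the call held in every leave-out.

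Matrix genes were called no more often than all genes in the main fit (15.8%). Without wild-type replicate 1 they were called more often than all genes (31%). Islr and Prelp were among the largest rises. Of 40 matrix glycoproteins and proteoglycans, 5 rose and 0 fell (median 0.23), against 8.56% and 7.28% of all genes, and 17 rose without wild-type replicate 1, against 15.7%. The call of 1 member, Prelp, held in every leave-out. The list mean was 0.66, -0.35 and -0.31 log2 CPM about the wild-type mean in wild-type replicates 1, 2 and 3, -0.18, 0.67 and 0.93 in Ctr1-null and 0.72, 0.73 and 1.14 with BCS. Prelp (GRCm38 chromosome 1, 133910304 to 133921414), a leucine-rich proteoglycan that anchors basement membranes, stood at 1.89, 0.784 and 0.818 CPM in wild type, 1.84, 6.34 and 8.65 CPM for Ctr1-null and 11.7, 9.65 and 16.4 CPM with BCS (log2 fold change 3.43 ± 0.56, edgeR adjusted p = 0.00769). Its BCS libraries were the 3 highest, and Ctr1-null replicate 1 was as low as wild-type replicate 1. Islr, a secreted leucine-rich repeat protein of mesenchymal cells, had 42, 4 and 3 counts in wild type and 244, 263 and 694 counts with BCS. The fitted change of Islr, 4.45 ± 1.08 (edgeR adjusted p = 0.0254), therefore rests on very few wild-type counts, and it was 6.58 without wild-type replicate 1. Mfap5, a microfibril protein, rose by 1.22 ± 0.23 log2 units (edgeR adjusted p = 0.0113).

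Collagens gave 1 rise and 3 falls among 23, near the 15.8% of all genes called, or 8 and 5 without wild-type replicate 1, where 31% of all genes were called. Col6a1 stood at 949, 618 and 647 CPM in wild type and 1186, 1198 and 1519 CPM with BCS (log2 fold change 0.82 ± 0.22, edgeR adjusted p = 0.0376). The basement membrane chains Col4a1 and Col4a2 fell (log2 fold changes -0.32 ± 0.08 and -0.38 ± 0.08). The anchoring fibril collagen Col7a1 stood at 25.1, 32.9 and 34.2 CPM and 15.5, 15 and 18.3 CPM (log2 fold change -0.92 ± 0.15, edgeR adjusted p = 0.00748). Among 25 matrix proteases and inhibitors, 3 rose and 2 fell, or 6 and 2 without wild-type replicate 1. The shares of all genes called were again 15.8% and 31%. Mmp19 stood at 12.1, 3.81 and 4.13 CPM and 23.4, 25.9 and 36.1 CPM (log2 fold change 2.08 ± 0.45, edgeR adjusted p = 0.0178), and the inhibitor Timp3 rose by 0.98 ± 0.26 log2 units. The metalloprotease Adam12 and the urokinase Plau fell (log2 fold changes -1.04 ± 0.18 and -0.40 ± 0.11, edgeR adjusted p = 0.00888 and 0.0383). All 3 called genes of 10 in the complement list encode proteases of the C1 family and rose, and 5 rose without wild-type replicate 1, against 8.56% and 15.7% of all genes. None of these 3 calls held in every leave-out. C1s1 stood at 1.10, 0.324 and 0.353 CPM in wild type, 0.416, 4.26 and 4.09 CPM for Ctr1-null and 6.55, 8.22 and 15.4 CPM with BCS (log2 fold change 4.06 ± 0.81, edgeR adjusted p = 0.0141), with Ctr1-null replicate 1 among the wild-type libraries. C1ra and C1rl had log2 fold changes of 1.70 ± 0.34 and 1.5 ± 0.31 (edgeR adjusted p = 0.0148 and 0.0151). C1s1 and C1ra each have a close gene copy, so their reads may be shared.

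In the type I interferon response, 5 of 36 genes fell and 0 rose. Of all genes, 7.28% fell and 8.56% rose, and 15.8% were called in either direction. The median was 0.03, and 19 of the 36 values were positive. Without wild-type replicate 1 the counts were 8 and 2, and DESeq2 gave 5 and 2, where 31% and 23.6% of all genes were called. Cxcl10 (GRCm38 chromosome 5, 92346638 to 92348889), a chemokine for T cells, stood at 13.9, 50.4 and 49.5 CPM in wild type, 2.89, 6.26 and 5.68 CPM for Ctr1-null and 4.93, 5.15 and 4.24 CPM with BCS (log2 fold change -2.99 ± 0.46, edgeR adjusted p = 0.00663). The 2 null groups overlapped below wild type, and wild-type replicate 1 lay between them and replicates 2 and 3. Ifit1, an antiviral RNA-binding protein, stood at 16.1, 61.8 and 54.7 CPM and 13.7, 11.3 and 13.1 CPM (log2 fold change -1.80 ± 0.48, edgeR adjusted p = 0.0350), and Oasl1 fell by 1.61 ± 0.40 log2 units (edgeR adjusted p = 0.0287). Among chemokines, cytokines and NF-kB targets, 6 of 26 fell and 2 rose, or 9 and 6 without wild-type replicate 1, against 31% of all genes there. Ccl2, which attracts monocytes, stood at 28.6, 36.6 and 37 CPM in wild type, 40.0, 30.1 and 26.1 CPM for Ctr1-null and 16.5, 21.3 and 10.2 CPM with BCS (log2 fold change -1.09 ± 0.25, edgeR adjusted p = 0.0215). Cxcl12, the ligand of CXCR4, had 369, 363 and 358 CPM and 644, 622 and 869 CPM (log2 fold change 0.97 ± 0.24, edgeR adjusted p = 0.0256). Icam1, an adhesion molecule, had 30.1, 9.27 and 7.88 CPM and 47.5, 50.4 and 56.9 CPM (log2 fold change 1.71 ± 0.48, edgeR adjusted p = 0.0405), or 2.58 without wild-type replicate 1. Of 15 antigen presentation genes, 3 rose and 1 fell, or 5 and 2 without wild-type replicate 1. The shares of all genes called were again 15.8% and 31%. The peptide transporter genes Tap1 and Tap2 rose (log2 fold changes 0.88 ± 0.25 and 1.74 ± 0.30, edgeR adjusted p = 0.0422 and 0.00938) and the aminopeptidase Erap1 fell by 0.37 ± 0.10 log2 units.

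In growth factor pathways, calls were below the 15.8% of all genes in the main fit, but not below the 31% without wild-type replicate 1. Of 31 output genes of MEK and ERK, kinases of which MEK1 binds copper, 1 rose (Fosb, 0.74 ± 0.21) and 1 fell (Ccnd1), with a median of 0.06. Without wild-type replicate 1, 10 rose and 1 fell, against 15.7% and 15.3% of all genes. Of 26 receptor tyrosine kinases, 2 fell and 1 rose, or 2 and 7 without wild-type replicate 1, where 31% of all genes were called. Met, the receptor for hepatocyte growth factor, stood at 126, 176 and 177 CPM in wild type and 93.7, 96.5 and 85.4 CPM with BCS (log2 fold change -0.80 ± 0.17, edgeR adjusted p = 0.0181). The insulin-like growth factor receptor Igf1r fell by 0.46 ± 0.10 log2 units and the collagen receptor Ddr1 rose by 0.39 ± 0.09 log2 units. The gene of the Met ligand, Hgf, stood at 3.20, 0.487 and 0.409 CPM in wild type, 1.41, 2.75 and 4.77 CPM for Ctr1-null and 5.5, 5.75 and 14 CPM with BCS (log2 fold change 2.61 ± 0.78, edgeR adjusted p = 0.0484). Wild-type replicate 1 of Hgf lay above Ctr1-null replicates 1 and 2, and the change was 4.23 without it. Of 28 autophagy genes, 4 rose and 1 fell, or 5 and 5 without wild-type replicate 1, against 15.8% and 31% of all genes called. Atg10, the conjugating enzyme for ATG12, had 1.52, 1.89 and 2.03 CPM and 3.40, 3.50 and 4.36 CPM (log2 fold change 1.05 ± 0.18, edgeR adjusted p = 0.00846), and Map1lc3a, an LC3 gene, rose by 0.54 ± 0.12 log2 units. Lysosome and V-ATPase genes had 3 falls and 1 rise among 33, or 4 and 6 without wild-type replicate 1, beside the same shares. In that list the glucosidase Gaa was at 0.45 ± 0.13.

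Of 18 Hox genes tested, 4 rose and 0 fell, or 5 and 2 without wild-type replicate 1. In these fits 15.8% and 31% of all genes were called, and 8.56% and 15.7% rose. Hoxa13 stood at 12.9, 12.4 and 10.8 CPM in wild type and 20.6, 18.1 and 25.2 CPM with BCS (log2 fold change 0.83 ± 0.16, edgeR adjusted p = 0.0122), and Hoxd12 and Hoxd8 rose (log2 fold changes 0.96 ± 0.19 and 1.11 ± 0.22). Hox genes overlap antisense transcripts and the use of strand in counting is not given in the sources used here, so their reads may be mixed. Imprinted genes, expressed from the allele of 1 parent, showed 2 rises and 1 fall among 26, against 8.56% and 7.28% of all genes. Without wild-type replicate 1 there were 16 rises, against 15.7% of all genes. The list mean of that replicate was high (0.96, -0.51 and -0.45 in wild-type replicates 1, 2 and 3 against 0.81, 0.55 and 0.85 with BCS). Nnat, neuronatin of the ER membrane, stood at 8.65, 8.0 and 8.4 CPM in wild type, 3.97, 3.93 and 4.77 CPM for Ctr1-null and 2.93, 2.46 and 2.53 CPM with BCS (log2 fold change -1.66 ± 0.14, edgeR adjusted p = 0.00139). The groups were ordered without overlap, and wild-type replicate 1 lay with replicates 2 and 3. Impact, an inhibitor of the eIF2 alpha kinase GCN2, had 88.9, 81.6 and 77.7 CPM and 119, 117 and 115 CPM (log2 fold change 0.50 ± 0.07, edgeR adjusted p = 0.00651).

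The largest falls and rises were ranked among called genes of at least 5 CPM in the higher group whose groups did not overlap. Predicted genes, pseudogenes, some minor noncoding classes and genes with no symbol were left out. The 12 largest falls in this ranking were Slc31a1, Cxcl10, Runx3, Erfe, Tmem176b, Msln, Cgn, Tmem176a, Lrp2, F2rl1, Crabp2 and Ifit1. In all but Slc31a1 and Lrp2, wild-type replicate 1 lay between the BCS libraries and wild-type replicates 2 and 3. Runx3, a Runt transcription factor, stood at 2.25, 11.9 and 12.3 CPM in wild type, 1.19, 1.38 and 0.971 CPM for Ctr1-null and 1.47, 1.68 and 1.10 CPM with BCS (log2 fold change -2.63 ± 0.53, edgeR adjusted p = 0.0148). Erfe, the hormone erythroferrone, had 7.07, 17.1 and 18.7 CPM and 2.93, 2.59 and 2.75 CPM (log2 fold change -2.37 ± 0.35, edgeR adjusted p = 0.00604), and Crabp2, a carrier of retinoic acid, had 20.2, 61.8 and 67.4 CPM and 14.4, 14.5 and 13.3 CPM (log2 fold change -1.82 ± 0.42, edgeR adjusted p = 0.0217). Lrp2, the endocytic receptor megalin, was different. It stood at 32.4, 30.1 and 30.0 CPM in wild type, 37.6, 18.5 and 13.2 CPM for Ctr1-null and 9.81, 8.05 and 6.15 CPM with BCS (log2 fold change -1.95 ± 0.34, edgeR adjusted p = 0.00928). Its wild-type libraries lay close together, and the Ctr1-null libraries ranged from above wild type to near the BCS libraries. The surface protein mesothelin, Msln, stood at 23.8, 39.7 and 38.9 CPM and 7.46, 6.4 and 6.89 CPM (log2 fold change -2.30 ± 0.37, edgeR adjusted p = 0.00755), and the tight junction protein cingulin, Cgn, and the protease-activated receptor F2rl1 had log2 fold changes of -2.14 ± 0.53 and -1.83 ± 0.32. Tmem176a and Tmem176b, overlapping neighbours on chromosome 6 whose reads may be shared, had -2.13 ± 0.37 and -2.36 ± 0.42.

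Among the largest rises beside Islr, C1s1, Prelp, Svop and Hgf were Igdcc4, an immunoglobulin-family membrane protein, at 2.87, 0.973 and 0.855 CPM in wild type, 4.02, 8.26 and 11.3 CPM for Ctr1-null and 13.3, 11.8 and 23 CPM with BCS (log2 fold change 3.35 ± 0.53, edgeR adjusted p = 0.00752). Mst1, macrophage-stimulating protein, stood at 1.10, 0.703 and 0.465 CPM and 6.39, 4.13 and 6.53 CPM (log2 fold change 2.91 ± 0.36, edgeR adjusted p = 0.00463). Kcp, a secreted modulator of BMP, had 1.85, 0.270 and 0.297 CPM and 4.6, 3.03 and 11.4 CPM (log2 fold change 2.96 ± 0.81, edgeR adjusted p = 0.0383, or 4.45 without wild-type replicate 1). For these the Ctr1-null libraries mostly lay between the other groups. Col10a1, the collagen of hypertrophic cartilage, stood at 14, 2.76 and 2.49 CPM in wild type, 9.22, 11.5 and 18.0 CPM for Ctr1-null and 33.6, 35.9 and 54.8 CPM with BCS (log2 fold change 2.69 ± 0.60, edgeR adjusted p = 0.0201). Des, the muscle filament desmin, had 1.04, 0.568 and 0.855 CPM and 4.44, 3.18 and 8.31 CPM (log2 fold change 2.68 ± 0.47, edgeR adjusted p = 0.00952). The adaptor Efs and the RhoGAP Arhgap20 had log2 fold changes of 2.65 ± 0.53 and 2.65 ± 0.46 (edgeR adjusted p = 0.0145 and 0.00932).

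Markers of other cell types were summed beside these genes, and the sums of bone and cartilage and of muscle contain Col10a1 and Des themselves. The summed level of 10 bone and cartilage markers was 100 to 154 CPM in wild type and 197 to 224 CPM with BCS. Most of it was Runx2, Col2a1 and Col10a1, and Runx2 was lower in every BCS library than in every wild-type library. That of 10 muscle markers was 5.70 to 6.26 CPM and 8.01 to 13.8 CPM, nearly all of it Des, Acta1 and Tnnc1. Of these, the Acta1 and Tnnc1 levels of the 2 groups overlapped. Myod1 had 0 counts in all 9 libraries. The 10 macrophage and blood markers summed to 10.9 to 18.6 CPM and 18.9 to 26.5 CPM, nearly all of it Cd68 and Cd14. The Cd14 levels of the groups overlapped, while Adgre1, Tyrobp and Hbb-bs had 0 counts in every library. The 13 epithelial markers summed to 168 to 194 CPM and 131 to 167 CPM, nearly all of it Krt19, and the 11 neural markers to 164 to 262 CPM and 141 to 165 CPM, mainly Nes. The 8 endothelial markers summed to 28.8 to 45.2 CPM and 29.9 to 36.1 CPM, and the 9 germ and pluripotent cell markers to 0.911 to 1.14 CPM and 1.24 to 1.38 CPM. Whether cells of these kinds contributed to the changes in matrix, complement or chemokine genes was not tested.

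The 2 steps inside the comparison, loss of Ctr1 and addition of BCS, each gave few calls in the same fit, 2 genes (0.0109%) for Ctr1-null against wild type and 10 genes (0.0543%) for BCS against Ctr1-null. They share libraries with the main comparison and with each other, so they give no independent support. The 10 genes called at the second step included Atf5, Gdf15, Ddit3, Sesn2, Cdkn1a, Mki67 and Ccdc13, so the size of that step in these genes is a description. The log2 fold changes of the first and the second step were 0.21 ± 0.18 and 1.44 ± 0.17 for Gdf15, -0.18 ± 0.09 and 0.86 ± 0.09 for Ddit3, -0.15 ± 0.08 and 0.84 ± 0.08 for Cdkn1a, and 0.01 ± 0.07 and -0.51 ± 0.07 for Mki67. Among other stress response genes, Slc7a11 had 1.17 ± 0.32 and 0.59 ± 0.31, and Vldlr had 0.77 ± 0.18 and 0.72 ± 0.17. Ccne1 had -0.23 ± 0.11 and -0.52 ± 0.11, and Vcl had -0.45 ± 0.09 and -0.27 ± 0.09. For genes of lipid, BMP and matrix they were 2.06 ± 0.29 and 0.09 ± 0.27 for Fabp4, 1.20 ± 0.26 and 0.62 ± 0.26 for Plin4, 1.25 ± 0.20 and 0.39 ± 0.20 for Smad9 and 2.26 ± 0.54 and 1.17 ± 0.50 for Prelp. Whether the 2 steps differed was not tested for any gene.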

How the data were processed

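RNA sequencing counts of 9 fibroblast libraries were analysed, 3 per group. The authors deposited a table of estimated counts per gene, which holds whole numbers, and a second table of scaled signal, in which each count is divided by its own factor. Per the submitters' processing notes, FastQC, STAR, Salmon and DESeq2 were used with GRCm38, with no versions named. The strand setting is not given in the sources used here. Of 52661 gene identifiers, 52566 matched GENCODE M21 and 95 did not, and 17728 rows held no counts. The deposited counts were tested with edgeR 4.0.16 in R 4.3.3 (quasi-likelihood F-test, TMM scaling, genes kept by filterByExpr with a minimum count of 10 and a minimum total of 15). All 9 libraries entered 1 fit with 3 groups, so the Ctr1-null libraries without BCS shared the estimate of the spread. Standard errors were derived from the F statistic, as the log2 fold change over its square root. CPM were computed on TMM-scaled totals, and 3 counts, the limit that a count of 0 allows, equal 0.0546 to 0.0811 CPM in these libraries. A gene was called at a Benjamini-Hochberg adjusted p under 0.05 over all tested genes.

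The comparison, the 37 gene lists and the 9 lists of cell type markers were chosen with earlier results of these data known, so no list is independent evidence of its direction. Named genes were Slc31a1, the 12 largest called rises and falls at 5 CPM or more without overlap, and all copper genes. Predicted genes, pseudogenes, some minor noncoding classes and genes with no symbol were left out of those rises and falls. Also named were up to 3 called members per direction and list with the smallest p. Where none was called, the member with the smallest p was named. Chosen after their values were seen were Ddit3, Trib3, Atf4, Asns, Psat1, Phgdh, Slc7a5, Nupr1, Pycr1, Pck2, Hsp90b1, Calr, Sdf2l1, Mcm6, Pola1, Cdc6, Phlda3, Trp53, Cebpa, Pdgfra, Ccdc13 and the markers of cell types. Motifs were searched in RefSeq promoters of GRCm38.p6. Alternatives covered the scaling, the filter, DESeq2 1.42.0, limma-voom 3.58.1, the authors' factors from the scaled table, a replicate block, the 6 libraries alone and each library left out. Not every gene that the rule selects is described, and 1 withheld gene is not reported here.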

Additional observations from a re-analysis of the deposited data

How the results depend on the processing

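Of the genes called in Ctr1-null cells with BCS against wild type, none changed sign under an alternative that tested it. All 2916 were tested in most alternatives, 2633 with the authors' factors, 2597 with the filter of 1 CPM, 2885 with only the 6 libraries and 2913 without BCS replicate 1. The count of 2916 called genes stayed between 2325 and 4081 with other scalings, filters, tools or only the 6 libraries compared (DESeq2 gave 4081 of 17321 tested). It was 1543 with a replicate block and 3 against a 2-fold threshold. Leaving out 1 library gave 568 to 5840 calls, with 5840 without wild-type replicate 1 and 568 without wild-type replicate 3. The cause was not tested. Same-numbered libraries of both groups had correlations of their deviations of -0.063, 0.138 and -0.164, so the numbers were not taken as pairs. Among genes that were not called, Mt1 turned positive with upper-quartile scaling (0.016) and library totals (0.072). Signs also changed when single libraries were left out, with log2 fold changes from -0.20 to 0.13 for Mt1, -0.52 to 0.049 for Mt2, -0.22 to 0.21 for Asns and -0.025 to 0.21 for Ccs. Fold changes of genes near the limit of 3 counts in wild type, such as Islr, are imprecise.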

Other observations

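By annotation class, 1434 of 14150 tested protein-coding genes rose and 1272 fell, and in the class of long noncoding genes and models yet to be established 126 of 3224 rose and 47 fell. Whether the classes differed was not tested.

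The imprinted Dlk1-Meg3 region stood out by how far wild-type replicate 1 lay from replicates 2 and 3. Meg3, a maternally expressed long noncoding RNA, had 38.8, 1.59 and 2.04 CPM in wild type, 19.8, 37.8 and 61.3 CPM for Ctr1-null and 33.5, 28.8 and 57.1 CPM with BCS. Its log2 fold change of 1.48 ± 0.98 did not pass the test (edgeR adjusted p = 0.324), and it was 4.42 without wild-type replicate 1. The paternally expressed Dlk1, a membrane protein that restrains fat cell formation, had 1.35, 0.0270 and 0.0929 CPM, 1.25, 0.659 and 2.19 CPM and 1.16, 1.65 and 1.69 CPM in the same order, which is at or near the limit of detection in wild-type replicates 2 and 3. Both genes, like H19 (145, 26.1 and 26.1 CPM in wild type and 113, 85.5 and 130.1 CPM with BCS), were chosen after their values were seen.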
